A study of Homo sapiens with 6 samples.

Results

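Hemidesmosome and laminin-332 genes were followed in paclitaxel (PTX)-resistant MDA-MB-231 cells, a human triple-negative breast cancer line. The 8 genes were ITGB4, ITGA6, LAMB3, LAMA3, COL17A1, PLEC, DST and CD151, of 61014 genes with a transcript in the count table. They were chosen by name with this comparison of the same libraries already known, so their levels and differences are given as a description, with no test. The cells were sorted by FACS for aldehyde dehydrogenase (ALDH) activity into 3 libraries of BCSC (breast cancer stem cells, ALDH+) and 3 of non-BCSC (ALDH−), and all 6 libraries came from the one PTX-resistant line. Groups were taken from the sample titles, since the cell type label was the same in all 6. Whether the 3 libraries of a group came from separate cultures was not stated, so each spread is that between libraries, which may be technical.

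A hemidesmosome rivets the base of an epithelial cell to the basement membrane. Its receptor is integrin α6β4, made of ITGA6 and ITGB4, and the ligand is laminin-332, a trimer whose chains include LAMA3 and LAMB3. COL17A1 spans the membrane beside the integrin, the plakins PLEC and DST tie both to keratin filaments inside the cell, and the tetraspanin CD151 holds laminin-binding integrins in the membrane. In carcinoma cells α6β4 is also known outside hemidesmosomes, as a signalling receptor that takes part in migration and survival.

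Total counts ran from 9898588 to 21215352 per library and were higher in every BCSC library than in every non-BCSC library. A gene's counts are the sum over its transcripts, and CPM is those counts scaled to a common library total after TMM. VIM, CD44 and AXL, which MDA-MB-231 is known to express, summed to between 3739 and 6854 CPM in the 6 libraries. Of 5 genes for which low levels were looked for, EPCAM had at most 19 counts in any library, CDH1 at most 97 and ESR1 at most 167, whereas ERBB2 was at 54.7 to 85.7 CPM. PGR had 11, 5 and 23 counts in BCSC against 88, 175 and 199 in non-BCSC (called lower, adjusted p = 0.00218 in edgeR). ALDH1A3 had 519, 467 and 553 counts in BCSC against 285, 192 and 126 in non-BCSC (not called, adjusted p = 0.0577 in edgeR). ALDH1A1 had 0, 5 and 6 in BCSC against 38, 28 and 32 in non-BCSC (called lower, adjusted p = 0.0446 in edgeR). Olfactory receptor genes (391 genes), which breast cells are not known to use, summed to 37.1, 53.1 and 146 CPM in BCSC and to 521, 681 and 1183 CPM in non-BCSC. The marker lists of immune cells and of stromal, endothelial and red cells were higher in non-BCSC too, with sums of 2.56 to 3.65 and 0.718 to 4.90 CPM in BCSC against 14.2 to 23.1 and 12.9 to 29.9 CPM in non-BCSC. Of the 3 immune markers, PTPRC and CD3E were higher in every non-BCSC library, and CD68 was higher in every BCSC library (48, 50 and 26 counts against 0, 1 and 0). Of the 5 stromal, endothelial and red cell markers, DCN, LUM and HBB were higher in every non-BCSC library. The part of these lists in the differences below was not tested, and each member is set against the olfactory level where it comes near it.

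Of the 8 members, 6 had every BCSC library above every non-BCSC library in CPM, and 2, ITGA6 and LAMA3, had every BCSC library below. Among the 20442 genes past the expression filter, 24.2% were apart in the first way and 27.9% in the second. The filter kept 7 members and left out LAMA3. With a gene called at an edgeR quasi-likelihood adjusted p under 0.05 and a fold over 2, ITGB4, LAMB3, COL17A1 and PLEC were called higher, ITGA6 was called lower, and DST and CD151 were not called. The same rule called 20.1% of all genes tested, 8.85% as higher and 11.3% as lower. Since the members were picked on this contrast, nothing is read from these counts. In a bulk library, fewer cells that express a gene and less RNA per cell cannot be told apart.

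**Figure D1:**
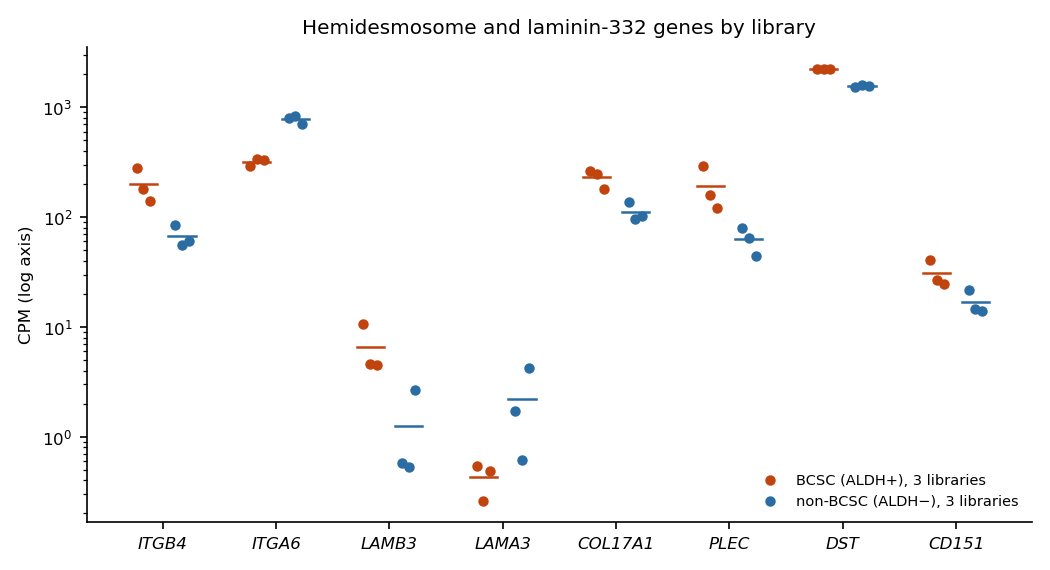
CPM (log axis) of the 8 genes in each library, with 1 point per library and a line at the mean of the 3 libraries of a group. ITGA6 and LAMA3 lie lower in BCSC and the other 6 genes lie higher, and LAMB3 and LAMA3 lie far below the rest.

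ITGB4, the β4 chain that is the defining subunit of the hemidesmosome receptor, spans chr17:73717408-73753899 on the plus strand (GRCh37). It had 5661, 2757 and 2331 counts in BCSC against 1027, 634 and 637 in non-BCSC, or 279, 180 and 141 CPM against 84.8, 56.0 and 61.1 CPM. The groups did not overlap, and BCSC replicate 1 was the highest of the 6. The mean was 200 ± 71.1 CPM in BCSC against 67.3 ± 15.3 in non-BCSC (SD, n = 3), a ratio of 2.97 and a log2 fold change of 1.57 (SE 0.25).

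ITGA6, the α6 chain, partners β4 in hemidesmosomes and β1 elsewhere, and spans chr2:173292082-173371187 on the plus strand. It had 5927, 5139 and 5437 counts in BCSC against 9760, 9485 and 7375 in non-BCSC. All 3 non-BCSC libraries were higher in spite of their smaller totals, at 784 ± 68.1 CPM against 319 ± 23.4 (SD, n = 3). The log2 fold change was -1.30 (SE 0.10), so the 2 chains of the same receptor lay in opposite directions. On a scale of counts per kb of transcript (TPM scale), there were 1.12, 2.01 and 2.49 ITGA6 transcripts per ITGB4 transcript in BCSC against 10.2, 16.8 and 14.2 in non-BCSC. ITGA6 RNA was thus the more abundant of the 2 in every library on that scale, with a narrower excess in each BCSC library. With the mean length of all transcripts of a gene instead, the order turned in BCSC replicate 1 alone. ITGA6 was at 168 and ITGB4 at 176 there. Protein was not measured. The ratio was not corrected for GC content, which is 42.4% for ITGA6 and 63.2% for ITGB4. ITGB1, the other partner of α6, differed by -0.70 on the log2 scale (SE 0.11, adjusted p = 0.00298 in edgeR), which was short of the fold minimum.

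Of the laminin-332 chains, LAMB3 (β3) had 214, 70 and 75 counts in BCSC against 7, 6 and 28 in non-BCSC. All BCSC libraries were higher, but the counts were small and non-BCSC replicate 3 stood above the other two. Its level was 6.55 ± 3.46 CPM against 1.26 ± 1.23 (SD, n = 3), with a log2 fold change of 2.38 (SE 0.78), and without non-BCSC replicate 3 it was 3.57. LAMA3 (α3) had 11, 4 and 8 counts in BCSC against 21, 7 and 44 in non-BCSC, or 0.429 ± 0.148 against 2.19 ± 1.84 CPM. On the TPM scale the LAMA3 groups overlapped, at 1.04, 1.44 and 0.123 in BCSC against 0.570, 2.10 and 2.34 in non-BCSC. Short transcripts such as LAMA3-213, of 473 bases, weigh more on that scale. No library therefore held more than 214 counts of either chain, and the pair lay in opposite directions in CPM.

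Both laminin chains in non-BCSC lay below the mean olfactory receptor level. Per kb of transcript, LAMB3 was at 0.283 times and LAMA3 at 0.616 times the mean of the olfactory receptor genes there. In BCSC, LAMB3 was at 42.6, 16.9 and 5.26 times that mean, LAMA3 at 7.05, 6.56 and 0.227 times. The other members stood above it in every library, from 2.02 times for PLEC in non-BCSC replicate 3 to 3164 times for DST in BCSC replicate 1. With the olfactory level subtracted, the log2 fold changes were 1.38 for ITGB4, -1.54 for ITGA6, 0.83 for COL17A1, 1.71 for PLEC, 0.26 for DST and 0.71 for CD151, each in the direction it had before.

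COL17A1, the transmembrane collagen known as BP180, had 5379, 3763 and 3001 counts in BCSC against 1657, 1077 and 1073 in non-BCSC. The groups did not overlap in CPM, and the level was 231 ± 43.7 CPM against 112 ± 22.1 (SD, n = 3), with a log2 fold change of 1.05 (SE 0.18). On the TPM scale they did overlap, at 191, 202 and 126 in BCSC against 146, 58.7 and 90.4 in non-BCSC. The gene spans chr10:105791044-105845638 on the minus strand. COL17A1-208, which encodes the whole protein of 1497 residues, held most of the gene's counts in every library except non-BCSC replicate 1, at 46.9%. It had 4125, 2567 and 2430 counts in BCSC against 777, 962 and 750 in non-BCSC. That transcript was thus higher in each BCSC library, at 172 ± 28.4 CPM against 72.8 ± 10.5. COL17A1-209, an intron-retaining transcript, held 13.0% of the gene's counts in BCSC against 5.98% in non-BCSC, with groups that overlapped in CPM. COL17A1-202 held 3.11% against 12.2%, and COL17A1-207, annotated for decay, 1.49% against 10.1%. Their groups overlapped in CPM too.

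The plakins differed in size and evenness. PLEC, plectin, which links integrin β4 to keratins, had 5963, 2451 and 2018 counts in BCSC against 967, 731 and 458 in non-BCSC. BCSC replicate 1 stood apart from the other BCSC libraries, at 294 CPM against 160 and 122, and the lowest BCSC library still exceeded the highest non-BCSC library at 79.8 CPM. The log2 fold change was 1.61 (SE 0.32). DST, dystonin, had 45108, 33998 and 37181 counts in BCSC against 18674, 18124 and 16398 in non-BCSC. It was the most even of the members, at 2230 ± 16.7 CPM against 1572 ± 30.1 (SD, n = 3), with a log2 fold change of 0.50 (SE 0.08). CD151 had 830, 409 and 406 counts in BCSC against 260, 166 and 146 in non-BCSC, at 30.7 ± 8.88 CPM against 16.7 ± 4.13, with a log2 fold change of 0.88 (SE 0.28). POLR2L lies across CD151 on the opposite strand and had counts equal to 24.8% of those of CD151. Whether strand was used in counting was not stated, so reads from the 2 genes may not be fully told apart.

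The members' order per length changed between the groups. In BCSC, DST led on the TPM scale at 500 ± 37.4, before COL17A1 at 173 ± 41.2 and ITGA6 at 163 ± 18.7, whose ranges overlapped. ITGB4 followed at 94.4 ± 29.6, then CD151 at 54.2 ± 12 and PLEC at 33.7 ± 13.1, whose ranges overlapped, then LAMB3 at 4.28 ± 1.78 and LAMA3 at 0.867 ± 0.675. In non-BCSC, ITGA6 led at 412 ± 27.7, ahead of DST at 354 ± 36.2, with the lowest ITGA6 library at 383 and the highest DST library at 382. COL17A1 came next at 98.5 ± 44.4, and ITGB4 at 30.9 ± 5.83 and CD151 at 29.2 ± 6.88 overlapped. PLEC was at 11.6 ± 3.96, and LAMA3 at 1.67 ± 0.959 and LAMB3 at 0.787 ± 0.792 overlapped at the bottom.

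**Figure D2:**
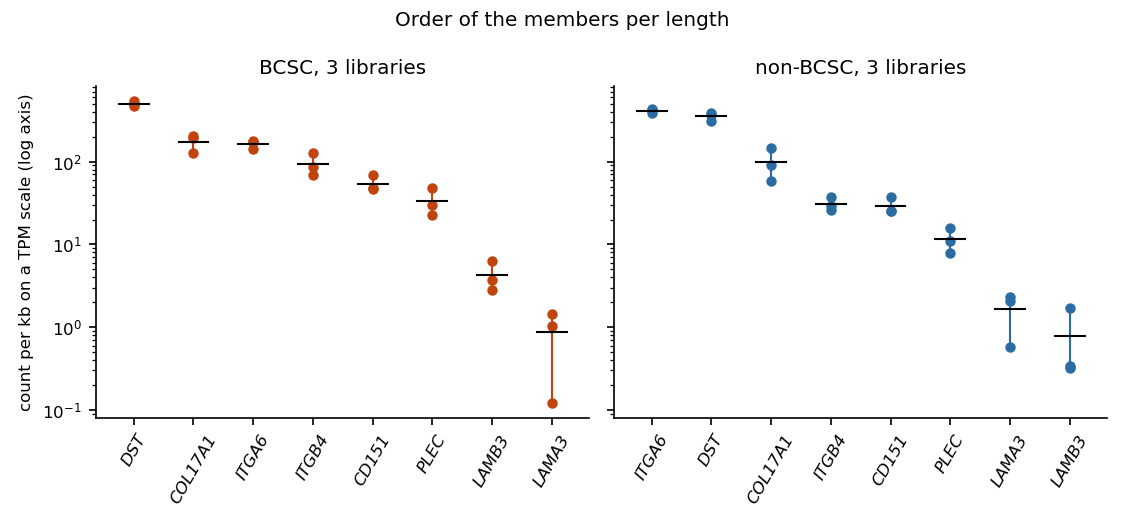
Counts per kb of transcript on a TPM scale (log axis) for the 8 genes in the 3 libraries of each group, ordered by the group mean (black bar). DST leads in BCSC at a mean of 500 and ITGA6 leads in non-BCSC at 412, and the laminin chains are lowest in both.

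Base composition moved with the direction of most members. Over all genes tested, the log2 fold change had a rank correlation of 0.54 with GC content, a description across genes, which are not independent, of the same 6 libraries. The mean GC content of the counts was 45.7%, 44.7% and 44.3% in BCSC against 44.1%, 43.5% and 43.4% in non-BCSC, so BCSC replicate 1 was the richest. The 4 members richest in GC, which are LAMB3 (59.0%), CD151 (61.5%), ITGB4 (63.2%) and PLEC (66.8%), were all higher in BCSC, as was COL17A1 (54.5%), and ITGA6, at 42.4%, was lower. DST, at 41.4%, was the exception among the AT-rich members, since it was higher. The 875 genes within 2 percentage points of the GC content of ITGB4 had a median log2 fold change of 1.27, and the 266 within 2 points of PLEC had a median of 1.39. The 4573 genes like ITGA6 had a median of -0.42 and the 4791 like DST had one of -0.48.

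A correction of each library for GC content and transcript length brought the rank correlation to -0.07 and moved the members unequally. The log2 fold change became 0.30 for ITGB4, 0.39 for PLEC and 0.47 for COL17A1, and to 1.23 for LAMB3. For ITGA6 it was -0.77, and for DST it was 0.93. CD151 turned to -0.44. The correction also moved the median of all genes from -0.05 to 0.19, so relative to that median ITGB4 was at 0.12, PLEC at 0.20, COL17A1 at 0.28, CD151 at -0.63, DST at 0.74, ITGA6 at -0.96 and LAMB3 at 1.04. Under RLE scaling all 7 members past the filter kept their direction, but COL17A1 had a fold under 2, at 0.96. It was also under 2 with DESeq2 (0.99), 10 counts in every library (0.90), protein coding transcripts (0.94) and background removed (0.83), and without BCSC replicate 1 (0.93) or non-BCSC replicate 2 (0.99).

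**Figure D3:**
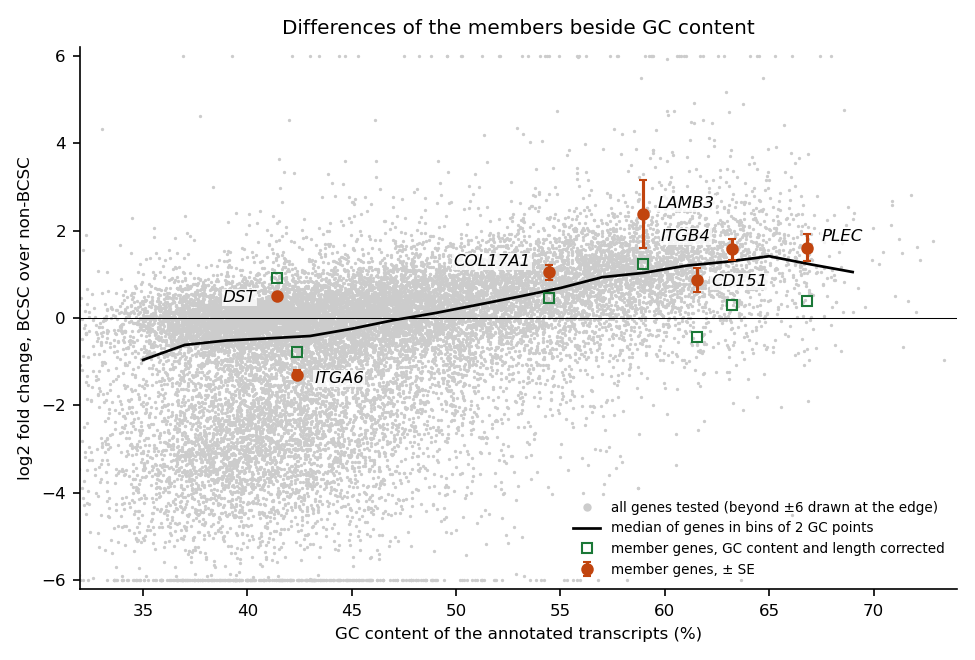
Log2 fold change (BCSC over non-BCSC) against the GC content of a gene's transcripts (%), with all genes tested in grey, their median in bins of 2 GC points as a black line, the members with their SE in orange and the members after correction for GC content and length as green squares. The black line climbs with GC content, PLEC, ITGB4 and CD151 lie near it, and DST and ITGA6 lie off it on opposite sides.

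At the level of transcripts, the form of ITGB4 differed between the groups. ITGB4-201 encodes 1822 residues and carries a coding exon of 210 bases, exon 33 of 40, at chr17:73749846-73750055 (GRCh37, plus strand), which adds 70 residues to the cytoplasmic part of β4. ITGB4-203 and ITGB4-206 lack it and share one coding sequence of 1752 residues, the common form of β4. The exon is printed because it sets the coding sequence of ITGB4-201 apart from theirs, and 80.0% of its bases are G or C. The transcripts also differ in where they start and end.

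ITGB4 exon 33: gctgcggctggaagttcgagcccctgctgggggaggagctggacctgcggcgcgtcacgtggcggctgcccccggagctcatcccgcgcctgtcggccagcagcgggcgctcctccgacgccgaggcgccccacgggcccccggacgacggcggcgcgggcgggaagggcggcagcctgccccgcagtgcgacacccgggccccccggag

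ITGB4-201 had 4, 0 and 0 counts in BCSC against 812, 398 and 635 in non-BCSC. ITGB4-206 had 3456, 804 and 1519 counts in BCSC against 167, 183 and 0 in non-BCSC, and ITGB4-203 had 2161, 1912 and 805 in BCSC against 0 in each non-BCSC library. Set against a floor of 3 counts per library, ITGB4-203 was 353-fold higher in BCSC. That floor covers counting error only, and not reads assigned to another transcript of the gene, so the fold is no lower bound. The transcript with the exon thus took 0.0236% ± 0.0408 of the ITGB4 counts in BCSC against 80.5% ± 18.5 in non-BCSC (SD, n = 3), with 79.1%, 62.8% and 99.7% in the 3 non-BCSC libraries. The forms without it took 198 ± 70.7 CPM in BCSC against 12.6 ± 11.0 in non-BCSC. They include ITGB4-202, of 1805 residues with another inserted exon, at 0.327 ± 0.409 CPM in BCSC against 2.72 ± 2.38 in non-BCSC. The higher ITGB4 sum in BCSC was therefore held by the common form, while the form with the exon was higher in non-BCSC, at 53.7 ± 16.7 against 0.0655 ± 0.113 CPM. Over its whole length, GC content is 63.6% for ITGB4-201, 63.3% for ITGB4-206 and 62.9% for ITGB4-203, but 80.0% in the exon itself. The part of base composition in these shares was not tested.

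These shares rest on how reads were assigned to transcripts that share nearly all their exons, a step that was not given in the sources used here. Of the 25 transcripts that held at least 10% of a member's counts in either group, 15 had 0 counts in at least 1 library, DST-207 and ITGA6-202 among them. Counts of single transcripts are thus estimates. Of the 25, 7 were higher and 3 lower in BCSC without overlap in CPM. The share over all transcripts was not worked out, so nothing is read from this.

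ITGA6 has an A form and a B form, which differ in the cytoplasmic tail. The A form includes an exon of 130 bases (chr2:173366500-173366629, exon 25 of 26 in ITGA6-212), and the B form skips it and reads on in another frame. The 105 coding bases of that exon, which encode 35 residues, are printed to identify it.

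ITGA6 exon 25, coding part: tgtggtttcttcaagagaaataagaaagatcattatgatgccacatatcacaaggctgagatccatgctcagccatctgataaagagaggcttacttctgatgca

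Transcripts with the A exon took 59.6%, 61.6% and 48.2% of the ITGA6 counts in BCSC against 57.9%, 61.7% and 95.5% in non-BCSC. The groups overlapped, and all 6 libraries held both forms. Non-BCSC replicate 3 held the least of the B form, at 3.78% of its ITGA6 counts, and there ITGA6-202, the main B transcript, had 0 counts against 4028 and 3526 in the other non-BCSC libraries. In that library ITGA6-201 and ITGA6-212, both with the exon, had 3641 and 3401 counts. ITGA6-212 was lower in every BCSC library, at 2195, 1542 and 2622 counts against 3558, 3000 and 3401.

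DST gives an epithelial form, BP230, and other forms, among them far longer ones of muscle and nerve that do not belong to hemidesmosomes. DST-205, the annotated epithelial form of 2649 residues with a 3′ end of its own, had 5117, 4345 and 5057 counts in BCSC against 3003, 2942 and 2380 in non-BCSC. It was at 280 ± 26.8 CPM against 242 ± 16.9 (SD, n = 3), and the groups overlapped, with 251 CPM in the lowest BCSC library and 257 in the highest non-BCSC library. All other DST transcripts together had 1943 ± 18.6 CPM in BCSC against 1311 ± 24.4 in non-BCSC, without overlap. The difference of the DST sum was therefore carried mostly by transcripts other than DST-205. DST-205 was 12.6% ± 1.14 of DST counts in BCSC against 15.6% ± 0.952 in non-BCSC. Not all of the others are forms of muscle and nerve or far longer. DST-201 shares the start of DST-205, and DST-208 has 9180 bases against 8971 for DST-205. DST-208 was at 124 ± 11.0 CPM in BCSC against 36.7 ± 55.7 in non-BCSC. DST-201 was higher in every BCSC library (8271, 4295 and 2908 counts against 1827, 989 and 1012), whereas DST-241 ran from 1393 to 11353 counts within non-BCSC alone.

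CD151-203 and CD151-202 encode 253 residues each and differ outside the protein. CD151-203 had 342, 399 and 138 counts in BCSC against 0 in each non-BCSC library. Set against 3 counts per library it was 64.6-fold higher, which is likewise no lower bound. CD151-202 had 194, 0 and 185 counts in BCSC against 240, 164 and 70 in non-BCSC. PLEC-201 held most PLEC counts in 5 of the 6 libraries, at 5717, 1806 and 1630 in BCSC against 387, 718 and 395 in non-BCSC. In non-BCSC replicate 1 it held 40.02%, and PLEC-210 held 57.8%. LAMB3-203 held 96.6% of LAMB3 counts in BCSC against 100% in non-BCSC, so the LAMB3 values are those of 1 transcript. LAMA3-201, the short form of α3 found in laminin-332 of skin, had 0 counts in all 6 libraries, and the long LAMA3-202 of 3333 residues had 6, 0 and 8 counts in BCSC against 17, 0 and 41 in non-BCSC. A library with 0 counts allows up to 3, a limit of counting error only.

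**Figure D4:**
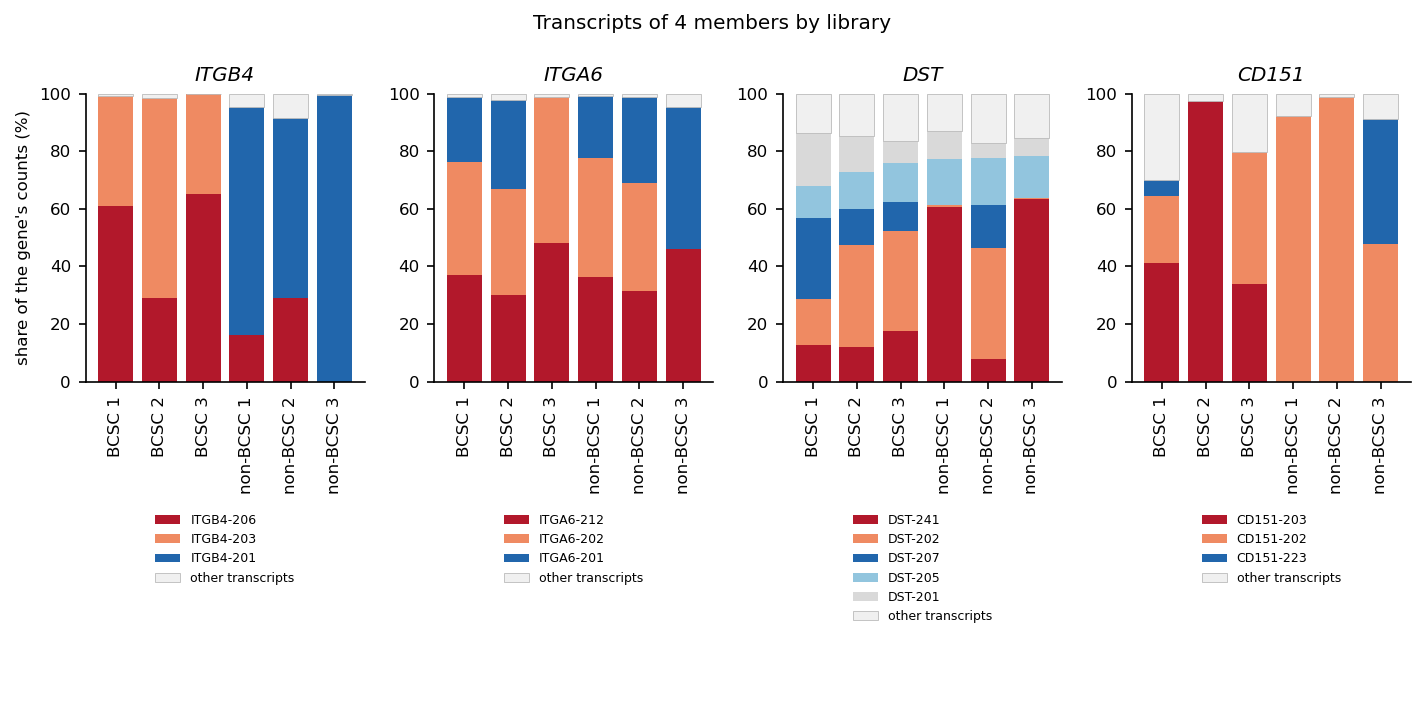
Share of each gene's counts (%) held by its main transcripts in each library, for ITGB4, ITGA6, DST and CD151, with all further transcripts in white. ITGB4-201 fills 79.1%, 62.8% and 99.7% of ITGB4 in non-BCSC and almost nothing in BCSC, whereas the DST-205 share stays between 11.3% and 16.2% in all 6 libraries.

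Start sites were compared through the 250 bases upstream in RefSeq windows (GRCh38.p14), which were on file for 5 members as 10 windows. Matches on both strands were sought for the AP-1 motif TGANTCA, the E-box CAGGTG bound by ZEB and SNAI factors, and the GC box GGGCGG. The starts printed, with matches in capitals, are shown since they belong to the laminin chains, to COL17A1-208 and to DST-205. The DST start is shared with DST-201, a long form, and DST-219. Each runs 5′ to 3′ on the strand of its gene, at chr1:209651375-209651624 (minus) for LAMB3, chr18:23872770-23873019 (plus) for LAMA3, chr10:104085881-104086130 (minus) for COL17A1 and chr6:56642890-56643139 (minus) for DST.

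LAMB3-204 start: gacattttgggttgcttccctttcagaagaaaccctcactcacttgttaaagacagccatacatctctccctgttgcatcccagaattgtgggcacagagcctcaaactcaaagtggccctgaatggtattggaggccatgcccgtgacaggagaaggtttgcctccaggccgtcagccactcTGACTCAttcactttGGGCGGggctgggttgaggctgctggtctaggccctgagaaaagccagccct
LAMA3-201 start: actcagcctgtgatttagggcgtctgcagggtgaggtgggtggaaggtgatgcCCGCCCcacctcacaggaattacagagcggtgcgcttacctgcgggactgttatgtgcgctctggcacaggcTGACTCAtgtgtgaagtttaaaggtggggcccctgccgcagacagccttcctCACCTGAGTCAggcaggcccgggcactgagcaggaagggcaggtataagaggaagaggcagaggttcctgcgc
COL17A1-208 start: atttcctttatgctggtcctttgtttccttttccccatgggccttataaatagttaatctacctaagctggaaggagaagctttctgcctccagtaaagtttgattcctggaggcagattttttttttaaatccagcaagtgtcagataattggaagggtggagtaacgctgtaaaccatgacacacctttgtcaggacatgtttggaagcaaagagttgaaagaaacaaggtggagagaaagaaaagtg
DST-205 start: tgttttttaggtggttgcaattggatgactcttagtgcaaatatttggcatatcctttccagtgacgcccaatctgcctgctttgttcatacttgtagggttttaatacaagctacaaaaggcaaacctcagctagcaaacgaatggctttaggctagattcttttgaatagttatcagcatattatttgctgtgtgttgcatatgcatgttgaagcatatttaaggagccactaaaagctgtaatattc

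The start of LAMB3-203, the transcript with nearly all LAMB3 counts, lies 60 bases downstream of that of LAMB3-204. The LAMB3-204 window had an AP-1 match 67 bases and a GC box 52 bases upstream of the start. The window of LAMA3-201, which had no counts, had AP-1 matches at 125 and 69 bases, an E-box at 73 bases that overlaps the nearer of them, and a GC box at 197 bases. Windows of the COL17A1-208 and DST-205 starts held none of the 3 motifs. The window shared by ITGA6-202 and ITGA6-212 held 3 GC boxes and that of DST-241 held 4. AP-1 was thus matched in 2 of the 10 windows, the E-box in 3 and the GC box in 6, against 6.57%, 17.5% and 42.6% of 35116 windows of the same length. The LAMB3-201 and LAMB3-202 windows overlap and share a GC box, which is counted in both. These are letters in a window, and no binding was measured.

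The genes whose levels most resembled ITGB4 were ADAM15, ASB6, KIF2C, DLGAP4 and ITGA3, each with a Pearson r of 0.999 of log2(CPM + 1) over the 6 libraries, among 12589 genes that averaged 50 counts or more. The points share 2 groups and the library depth and base composition that go with them. ADAM15, for example, was at 67.3, 43.4 and 30.7 CPM in BCSC against 16.2, 9.54 and 10.9 in non-BCSC, with BCSC replicate 1 highest as for ITGB4. The GC content of the 5 genes ran from 49.99% for KIF2C to 62.2% for ADAM15.

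Other genes of cell and matrix anchorage were taken from lists that share no gene with the members. The lists too were chosen with earlier results of these data known, so their calls are no independent test. Of 68 such genes, 56 passed the filter. Of these, 11 were called higher and 5 lower, beside 8.85% and 11.3% of all genes tested. Their median log2 fold change was 0.31 against -0.05 over all genes tested. Adjusted p-values are from edgeR's quasi-likelihood test over all genes.

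Among 8 partners of the hemidesmosome, 6 were tested and 1 rose. ITGA3, the α3 chain that pairs with β1 as a second laminin-332 receptor, was at 562, 361 and 282 CPM in BCSC against 156, 108 and 107 in non-BCSC. It rose by a log2 fold change of 1.70 (SE 0.25, adjusted p = 0.00179), in 3 of 3 libraries. COL7A1, of the anchoring fibrils beneath, had 96, 49 and 15 counts against 16, 6 and 31. The basal keratins that hemidesmosomes hold, KRT5 and KRT14, had at most 6 and 0 counts in BCSC against at most 36 and 12 in non-BCSC, and were too low to test.

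Of 9 other laminin chains, 1 rose and 1 fell. LAMA5, the α5 chain of laminin-511 and laminin-521, rose by 1.39 (SE 0.31, adjusted p = 0.0108) on the log2 scale. LAMA2, the α2 chain of muscle and nerve laminins, had 226, 95 and 127 counts in BCSC against 333, 289 and 390 in non-BCSC, a log2 fold change of -1.85 (SE 0.29, adjusted p = 0.00264). LAMC1, the γ chain that most other laminins share, had 9050, 6747 and 6076 counts in BCSC against 7023, 6355 and 4366, with a log2 fold change of -0.32 (adjusted p = 0.109). Of 11 other basement membrane genes, 9 were tested and 1 rose, AGRN, the heparan sulphate proteoglycan agrin, by 1.43 (SE 0.31, adjusted p = 0.00969). Without BCSC replicate 1, the log2 fold changes of LAMA5 and AGRN were 0.94 and 0.99, short of the fold minimum, and LAMA5 also missed the threshold without non-BCSC replicate 2 (1.33, adjusted p = 0.0502).

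Of 7 other laminin receptors, 3 rose. SDC4, a heparan sulphate receptor of focal adhesions, rose by 1.89 (SE 0.22, adjusted p = 0.000689), and DAG1, dystroglycan, rose by 1.28 (SE 0.19, adjusted p = 0.00191). SDC1, the epithelial syndecan, rose by 1.53 (SE 0.44, adjusted p = 0.0267), a call lost without any 1 of the BCSC libraries (1.43, 1.69 and 1.48) or without non-BCSC replicate 2 (1.62), with protein coding transcripts and with background removed (1.57). ITGA2, of the α2β1 receptor, came close to the fold minimum at 0.99 (SE 0.11, adjusted p = 0.000675).

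Of 7 other tetraspanins, 6 were tested, 2 rose and 1 fell. CD9, which like CD151 associates with integrins, had 1217, 759 and 732 counts in BCSC against 3030, 2804 and 2384 in non-BCSC, a log2 fold change of -2.24 (SE 0.13, adjusted p = 3.21e-05). CD82, known as a suppressor of metastasis, had 225, 148 and 63 counts in BCSC against 6, 0 and 0 in non-BCSC, and rose by 5.50 (SE 1.11, adjusted p = 0.00716). Without non-BCSC replicate 1, the one library of its group with CD82 counts, the fitted value was 9.94, which depends on the prior count. Per kb, CD82 was at 45.2 times the mean olfactory receptor level in BCSC and 0.311 times in non-BCSC. CD81 rose by 1.75 (SE 0.28, adjusted p = 0.00255). CD9 and CD82 were thus called in opposite directions.

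Of 7 proteases that cut laminin-332 or COL17A1, 3 rose and 1 fell. BMP1, which processes laminin chains, had 246, 158 and 99 counts in BCSC against 4, 3 and 17 in non-BCSC (3.68, SE 0.74, adjusted p = 0.00733), and its relative TLL1 had 16, 0 and 12 against 80, 174 and 157 (-4.56, SE 0.88, adjusted p = 0.00595). Per kb, BMP1 was at 26.6 times the mean olfactory receptor level in BCSC and 0.182 times in non-BCSC. TLL1 was at 0.662 times that level in BCSC and 3.05 times in non-BCSC. MMP14, a membrane protease that cleaves laminin-332, rose by 1.76 (SE 0.52, adjusted p = 0.0315), and MMP2 rose by 1.03 (SE 0.24, adjusted p = 0.0131). MMP14 lost its call without BCSC replicate 1 (1.46) or 2 (1.86) and without non-BCSC replicate 2 (1.47) or 3 (1.55), and with background removed (2.21), and was at 2.68 without non-BCSC replicate 1. MMP2, just past the fold minimum, lost its call without BCSC replicate 1 (0.86) or non-BCSC replicate 3 (0.88), and with RLE (0.94), DESeq2 (0.98), 10 counts in every library (0.89), protein coding transcripts (0.88) and background removed (0.90). ADAM9, ADAM10 and ADAM17, which shed the COL17A1 ectodomain, were not called, with log2 fold changes of -0.02, -0.08 and -0.28.

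Of 5 other plakins, 2 were tested and neither was called, with MACF1 at 0.50 (SE 0.09, adjusted p = 0.00373) and DSP, desmoplakin, at -0.75 (SE 0.12, adjusted p = 0.00294). MACF1, the closest relative of DST, was thus close to DST in its log2 fold change. Of 8 desmosome genes, 7 were tested and 1 fell, DSC3, named after its values were seen, with 0, 4 and 17 counts in BCSC against 59, 37 and 66 (-3.48, SE 1.16, adjusted p = 0.0480). Per kb, DSC3 was at 0.634 times the mean olfactory receptor level in non-BCSC and at 0.478 times in BCSC, below that level in both groups. Of 6 regulators of the epithelial state, 3 were tested and 1 fell, TP63, the basal factor known to act on hemidesmosome genes, with 154, 151 and 188 counts against 257, 319 and 316 (-1.47, SE 0.27, adjusted p = 0.00471). ZEB1 was at -0.06 (adjusted p = 0.739).

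With the correction for GC content and length, 6 of the 15 named genes that were called kept their calls and 9 lost them. SDC4 (1.98), CD82 (4.48), BMP1 (2.38), CD9 (-1.42), TLL1 (-4.001) and LAMA2 (-1.35) kept theirs. ITGA3 was at 0.51, DAG1 at 0.63 and TP63 at -0.89, with adjusted p-values of 0.0293, 0.0123 and 0.0119 but a fold under 2. AGRN, LAMA5, MMP2, CD81, SDC1 and MMP14 were at 0.02, 0.13, 0.26, 0.38, 0.45 and 0.72.

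**Figure D5:**
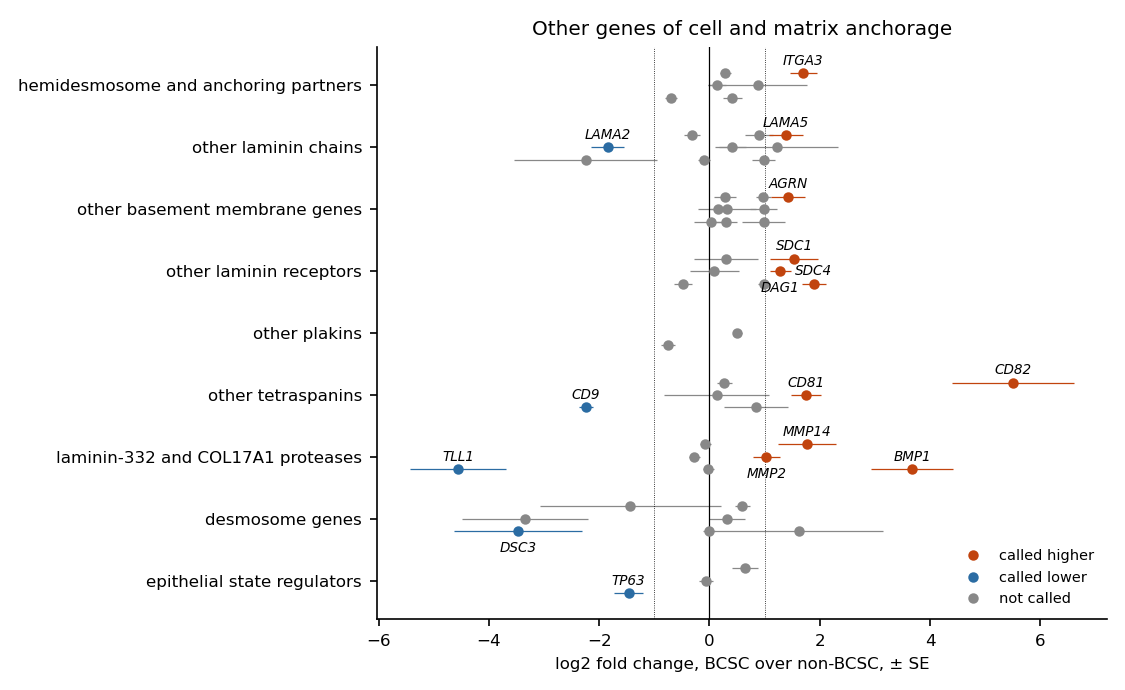
Log2 fold change (BCSC over non-BCSC) with its SE for the 56 genes tested in 9 lists of cell and matrix anchorage, with genes called higher in orange, called lower in blue and others in grey, and dotted lines at a fold of 2. The 11 genes called higher lie in 6 of the lists, and the 5 called lower in 5.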

How the data were processed

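PTX-resistant MDA-MB-231 cells were sorted on ALDH activity, and RNA was converted with random primers into libraries that keep strand (dUTP). Reads were aligned to hg19 by the authors, using HISAT2. The submitters' processing notes also name hg38, featureCounts and DESeq2, and the deposited table has no coordinates to settle the build. The authors deposited raw counts per transcript, in whole numbers and not normalized. How reads were assigned to transcripts is not given in the sources used here. Of 252618 transcripts, 249787 (98.9%) matched the GENCODE annotation on GRCh37 by identifier and were summed to 61014 genes. The 2827 unmatched transcripts, with 0.228% to 0.340% of a library's counts, and 4 with assembler-made identifiers were left out. CD24 and PECAM1 were not analysed here. Total counts of 9898588 to 21215352 per library set the precision.

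Gene sums went into edgeR's quasi-likelihood test (4.0.16, in R 4.3.3), robust, with TMM, filterByExpr and group as the term, adjusted by Benjamini-Hochberg over 20442 genes and called where the adjusted p was under 0.05 with a log2 fold change past 1. The fit was run on simulated counts with planted changes and a common dispersion, as a check of the code. The simulation did not copy the group difference in olfactory level, so it lends the calls no weight. Alternatives were RLE size factors, DESeq2 1.42.0, other count filters, a replicate block, each library left out, no minimum fold, protein coding transcripts only, a GC content and length correction (loess, span 0.3, per library) and removal of the olfactory receptor level. The members and lists were chosen with earlier results of these data known. From each other list, up to 4 genes called higher and 4 lower that averaged 50 counts or more, without overlap of the groups, were named, with the 5 genes most like ITGB4 and transcripts with at least 10% of a member's counts. Promoter windows were those of RefSeq on GRCh38.p14. The results of 2 listed genes are not reported here.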

Additional observations from a re-analysis of the deposited data

How the results depend on the processing

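Leaving out each library in turn gave 959 to 2230 genes called higher and 1103 to 3004 called lower, and 7 to 16 higher and 4 to 6 lower in the other lists. Without BCSC replicate 1 the counts were 959 and 1198, and 7 higher in the other lists. Lower calls were 1143 without BCSC replicate 2 and 1103 without non-BCSC replicate 3. Against 1810 higher and 2307 lower, DESeq2 called 4886 lower (1925 higher), at least 10 counts in every library 1177 lower (1383 higher), background removal 1081 lower (1789 higher), protein coding transcripts 909 higher and 735 lower, the GC content and length correction 2823 higher (1808 lower), and no minimum fold 3125 higher. In the other lists, 10 counts in every library left 3 lower, protein coding transcripts left 5 higher and no minimum fold gave 18 higher. Of 14 such genes with a value, protein coding transcripts kept 8 calls and lost those of ITGA3, DAG1, AGRN, SDC1, MMP2 and LAMA2. The log2 fold change of DST was 0.41 with RLE, 0.45 with DESeq2, 0.58 without a filter, 0.35 with 10 counts in every library, 0.35 with protein coding transcripts, 0.26 with background removed, 0.93 with the GC correction and 0.49 to 0.56 without 1 library. That of ITGA6 was -1.45 with 10 counts in every library, -1.45 with protein coding transcripts, -1.54 with background removed and -0.77 with the GC correction, and -1.35 to -1.20 without 1 library. With the GC correction ITGB4 was at 0.30, LAMB3 at 1.23, COL17A1 at 0.47, PLEC at 0.39 and CD151 at -0.44, a reversal. Without 1 library ITGB4 ran from 1.25 to 1.83, LAMB3 from 1.86 to 3.57, COL17A1 from 0.93 to 1.27, PLEC from 1.16 to 1.88 and CD151 from 0.62 to 1.15. Background removal put LAMB3 at 9.39, by construction, since its non-BCSC counts fall to about 0 and the value then depends on the prior count. LAMB3, BMP1, CD82 and TLL1 had no value with 10 counts in every library, BMP1 none with protein coding transcripts, and LAMA3 was below the filter. Whether the replicate numbers pair the libraries is not stated in the labels. Deviations of same-numbered libraries correlated at 0.25, 0.04 and 0.26, and each library correlated best with its own number. The replicate block gave 1994 higher and 2321 lower calls, and 12 and 6 in the other lists. With the mean length of all transcripts in place of each transcript's own, 10 of 16 member levels on the TPM scale moved by less than the spread between libraries, and shares per kb did so for 40 of 50. The cause of the other changes was not tested.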
